A study of Drosophila melanogaster with 4 samples.

Results

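The regions described here are the CP190 clusters on chromosome 4, on the heterochromatic scaffolds (sequences whose names end in Het) and on the unplaced sequence U of Drosophila melanogaster. A cluster is a region that the authors listed as significantly enriched in chromatin immunoprecipitation followed by sequencing (ChIP-seq). All rows of the authors' combined list on these 8 sequences were taken, which gave 259 of 7960 clusters, with 46 on chromosome 4, 101 on the 6 Het scaffolds and 112 on U. The rule uses the sequence name and no score, length or replicate support. Whether the sequence under each cluster is heterochromatic was not checked, and U is a collection of pieces without a chromosome.

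The samples were 2 CP190 ChIP libraries and 2 input libraries from whole embryos of the wild-type strain Oregon-R (Oregon-R-modENCODE), labelled 14 to 16 h old and raised in population cages. No animal carried a mutation, a transgene or a treatment. Embryos of this stage hold many cell types, so every score is an average over them. The ChIP used the CP190-HB antibody on formaldehyde-crosslinked chromatin. The labels do not state if the 2 ChIP replicates are from different collections of embryos. Each ChIP was called against 1 input, and the inputs enter the values below only in that way.

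CP190 is a zinc-finger protein with a BTB domain that is brought to insulators and many promoters by DNA-binding partners such as CTCF, BEAF-32 and Su(Hw), and it helps to hold distant sites together. Chromosome 4, the dot chromosome, is packed as heterochromatin over most of its length and yet carries active genes, which are bound by the chromosome-specific protein POF. The Het scaffolds are assembled stretches of the repeat-rich heterochromatin near the centromeres and of the Y chromosome. U collects sequence that could not be placed.

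Every cluster has 1 deposited value, treated as the log2 of an enrichment ratio and called the log2 score. A combined cluster was counted as found in a replicate when it overlapped a cluster of that replicate's own list by at least 1 bp. Clusters of 1 list are not replicates of a condition, so sequences are compared by counts, medians and exact 95% intervals, with no test between them. These intervals cover counting error only. Read depth is unknown, and the share of each sequence to which reads can be mapped was not analysed here.

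CP190 clusters were sparser on chromosome 4, on the Het scaffolds as a whole and on U than on the large arms. Most of them were found in neither replicate on the Het scaffolds and U, as were 24 of 46 on chromosome 4. Both statements have limits. XHet alone held 49.0 clusters per Mb (exact Poisson interval 23.5 to 90.1), which includes the value of the large arms, and 3 of its 10 clusters were found in neither. The share in neither was also taken among clusters at least as long as the shortest replicate cluster, 1301 bp. It was then 35.3% on chromosome 4 (exact interval 19.7 to 53.5%), 33.3% on the Het scaffolds (19.1 to 50.2%) and 37.8% on U (22.5 to 55.2%). On the large arms it was 17.6% (16.7 to 18.6%). Chromosome 4 held 34.0 combined clusters per Mb (exact Poisson interval 24.9 to 45.4), the Het scaffolds 10.9 (8.86 to 13.2) and U 11.1 (9.18 to 13.4). The 5 large arms 2L, 2R, 3L, 3R and X had 64.7 (63.3 to 66.2). Clusters covered 6.48% of chromosome 4, 1.57% of the Het scaffolds and 1.53% of U, compared with 13.4% of the large arms. The replicate lists gave lower densities. Replicate 1 had 14.1 clusters per Mb on chromosome 4, 3.34 on the Het scaffolds and 2.49 on U, compared with 36.8 on the large arms. Replicate 2 had 17.8, 3.23 and 2.79 in the same places, against 40.5 on the large arms.

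Of the 259 clusters, 57 were found in both replicates (22.0%, exact Clopper-Pearson interval 17.1 to 27.6%), against 46.5% of the whole combined list. A further 19 were found in exactly 1 replicate, against 20.8% of the whole list (1659 of 7960). The other 183 were found in neither (70.7%, 64.7 to 76.1%), against 32.6% of the whole list. Chromosome 4 had 18 clusters in both (39.1%, 25.1 to 54.6%), the Het scaffolds 24 (23.8%, 15.9 to 33.3%) and U 15 (13.4%, 7.69 to 21.1%), compared with 47.4% on the large arms. The interval of chromosome 4 includes the value of the large arms, while those of the Het scaffolds and U lie below it. For the share in neither, chromosome 4 had 52.2% (36.9 to 67.1%), an interval that lies above the 31.3% of the large arms. Counted per Mb, clusters found in both replicates came to 13.3 on chromosome 4, 2.59 on the Het scaffolds and 1.49 on U, compared with 30.6 on the large arms.

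**Figure D1:**
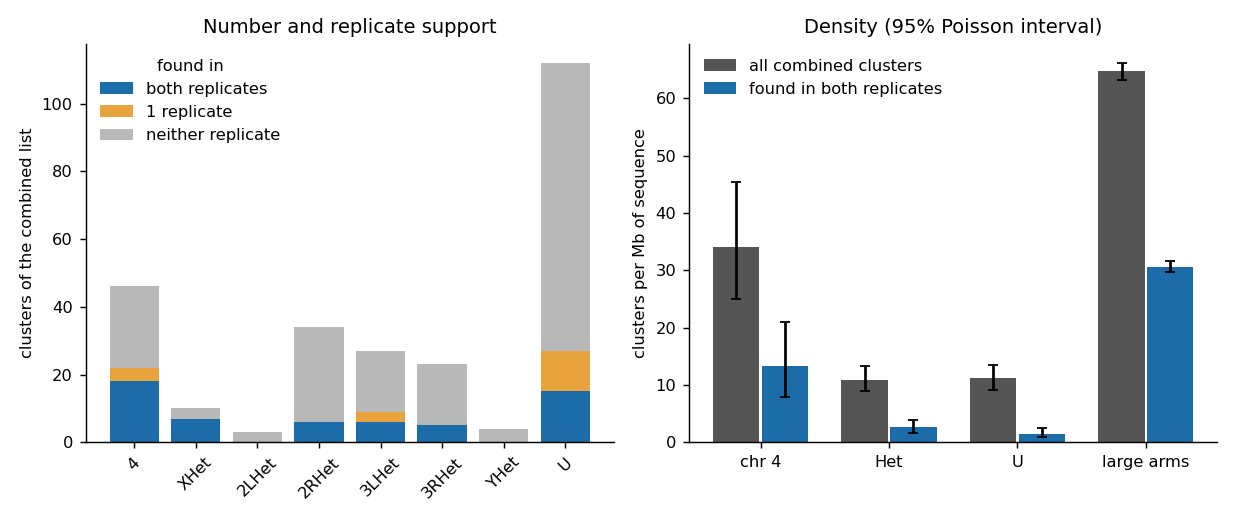
The left panel stacks the combined clusters of each sequence by whether they were found in both, 1 or neither replicate list. The right panel gives clusters per Mb of sequence with exact 95% Poisson intervals, for all combined clusters and for those found in both. In the left panel, grey bars for neither replicate make up 85 of 112 clusters on U and 3 of 10 on XHet. Densities of all combined clusters run from 10.9 per Mb on Het to 64.7 on the large arms. Those of clusters found in both run from 1.49 on U to 30.6 on the large arms.

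Clusters found in both replicates had higher median scores than those of the large arms, with lengths that were similar or, on U, slightly shorter. Their median length was 2507 bp on chromosome 4 (exact interval 2251 to 2780), 2236 bp on the Het scaffolds (2150 to 2283) and 2149 bp on U (2077 to 2275). On the large arms it was 2278.5 bp, a value that only the interval of U leaves out. Their median log2 score in the combined list was 0.92 on chromosome 4 (exact interval 0.52 to 1.25), 1.11 on the Het scaffolds (0.93 to 1.53) and 0.78 on U (0.48 to 1.59), compared with 0.62 (0.61 to 0.64) on the large arms. The intervals of chromosome 4 and U include the value of the large arms and that of the Het scaffolds does not. A log2 score above 0.90, the upper quartile of all combined clusters found in both replicates, was reached by 9 of 18 on chromosome 4, 18 of 24 on the Het scaffolds and 7 of 15 on U, compared with 24.5% of the 3648 on the large arms. Without XHet it was reached by 11 of 17 on the Het scaffolds.

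Chromosome 4 carried 18 clusters that both replicates marked. None of them was among the 100 highest of the combined list, compared with 48 of 3648 such clusters on the large arms. That share is so small that none is unremarkable among 18. The highest lay from 999353 to 1001989 (2637 bp), with a log2 score of 1.66 in the combined list, 1.54 in replicate 1 and 1.82 in replicate 2. It scored above 97.9% of the combined list and ranked 165 there. The second was the longest cluster of the chromosome, from 433662 to 438224 (4563 bp), with 1.45 in the combined list, 1.47 in replicate 1 and 1.66 in replicate 2. The third lay from 1132506 to 1135244, with 1.37, 1.23 and 1.53 in the same order of lists. All 3 were above 95% of the combined list, and the third had the lowest replicate 1 score among them.

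The next clusters followed closely. The one from 854544 to 857685 had 1.30 in the combined list, 1.17 in replicate 1 and 1.44 in replicate 2. The one from 88297 to 91098 had 1.25, 1.23 and 1.34, and the one from 506240 to 508495 had 1.22, 1.09 and 1.32. Each of these 6 clusters scored higher in replicate 2 than in replicate 1. The cluster from 444376 to 446503 showed the widest gap between replicates on this chromosome, at 0.71 in replicate 1 and 1.26 in replicate 2, and 0.99 in the combined list. Clusters from 426518 to 428768, from 576914 to 579867 and from 1104252 to 1106526 had combined log2 scores of 1.06, 0.95 and 0.88.

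The 8 other clusters found in both replicates were weaker, with combined log2 scores of 0.32 to 0.73. They lay from 509840 to 512102, 716519 to 719298, 526959 to 529617, 961245 to 963457, 521363 to 523416, 109519 to 111614, 1321074 to 1323535 and 956309 to 958860, in falling order of score. The last 2 scored above only 21.4% and 20.5% of the combined list. Both replicates nevertheless listed them, at 0.39 and 0.42 in replicate 1 and 0.40 and 0.45 in replicate 2. Scores of shared clusters on this chromosome thus spanned most of the combined list.

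**Figure D2:**
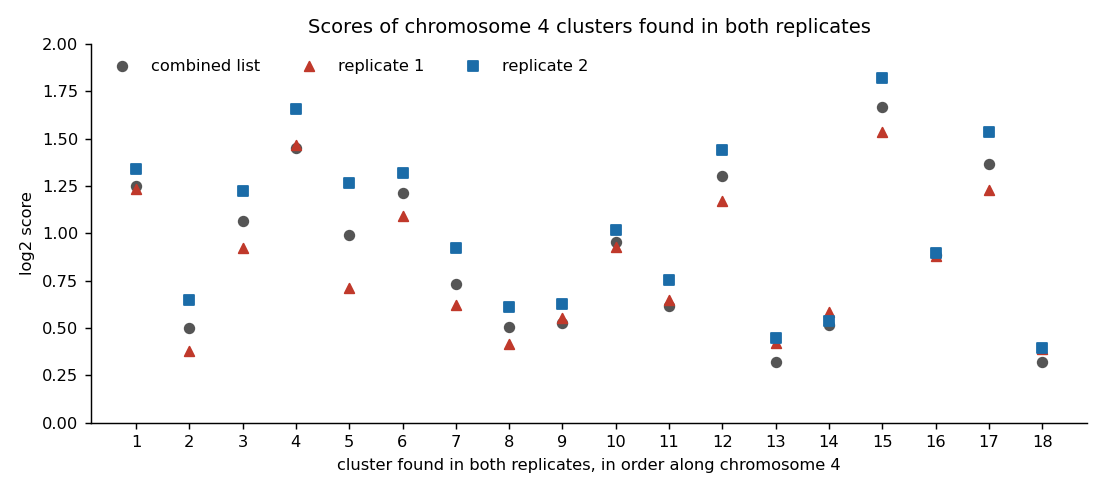
Log2 score of the 18 chromosome 4 clusters found in both replicates, in their order along the chromosome, in the combined list (circles), replicate 1 (triangles) and replicate 2 (squares). Replicate 2 lies above replicate 1 in 17 of 18 clusters, and the clusters at places 4, 15 and 17 reach 1.37 or more in the combined list.

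These clusters were not spread evenly along the chromosome. Between 426518 and 579867, a stretch of 153 kb that makes up 11.3% of the chromosome, lay 8 of the 18 clusters found in both replicates, with 2 further combined clusters found in neither. That stretch was picked after its clusters were seen, so it is a description only. In windows of 100 kb, the window from 500001 to 600000 held 5 such clusters and the one from 400001 to 500000 held 3, while 4 windows held none. The widest interval without a cluster found in both ran from 111615 to 426517, or 315 kb, and it was equally empty in each replicate list. Within it the combined list had 4 clusters, all found in neither replicate. Other wide intervals ran from 1135245 to 1321073 (186 kb) and from 579868 to 716518 (137 kb). In the first of these, replicate 2 alone listed clusters that overlapped the combined ones from 1144230 to 1145567 and from 1166256 to 1168209, and a further one from 1261787 to 1263087 that overlapped none.

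Some neighbours on chromosome 4 lay very close. The smallest gap, between the combined clusters ending at 526834 and starting at 526959, was 124 bp, and only the second of this pair was found in the replicates. In all, 6 of the 45 gaps between combined clusters were under 2 kb. The 4 clusters found in 1 replicate were all found in replicate 2, with log2 scores of 0.25 to 0.37. They were 8.70% of the 46 (exact interval 2.42 to 20.8%), against 13.6% of the whole list. None was in replicate 1 only (upper limit 7.71%), against 7.22% of the whole list. Both intervals include the value of the whole list. Over the 24 clusters found in neither replicate, the median was 0.37 for log2 score and 1309.5 bp for length. Such clusters on the large arms had medians of 0.36 and 1260 bp. The highest of them lay from 1317621 to 1318846, with 1.25.

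XHet stood out by its spacing. On this scaffold of 204 kb, 7 of the 10 combined clusters were found in both replicates, which is 70.0% (exact interval 34.8 to 93.3%). Those 7 came to 34.3 per Mb (13.8 to 70.7), compared with 30.6 for such clusters on the large arms. These 7 formed an evenly spaced run over 37.5 kb, from 89611 to 127122. Their midpoints were 5826 to 5926 bp apart, with a mean of 5884.5 ± 45.9 bp (SD over 6 spacings), or a coefficient of variation of 0.78%. Their lengths were 2182 to 2247 bp.

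The run was present in each replicate list. In replicate 1 all 7 XHet clusters belonged to it, spaced 5891 ± 25.7 bp apart (SD, range 5848.5 to 5915.5 bp). In replicate 2 all 7 also belonged to it, spaced 5878.5 ± 57.0 bp apart (range 5786.5 to 5947.5 bp). Midpoints of the paired clusters differed between replicates by a median of 18.5 bp and by at most 66.5 bp. The gaps between neighbours were 3579 to 3720 bp in the combined list.

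Runs of at least 6 consecutive clusters, in which the longest midpoint spacing was at most 1.1 times the shortest, were searched in every list. This search was set up after the XHet run had been seen. It returned 1 run in replicate 1, 1 in replicate 2 and 1 among the combined clusters found in both replicates, each time the XHet run. In the full combined list it returned none, because the cluster from 99886 to 101112, which was found in neither replicate, lies 307 bp before the third member. What sequence repeats at this spacing, if any, was not analysed here, since no genome of the files' release was used.

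Scores in the run were close together. In order along the scaffold, the combined log2 scores were 1.09, 0.97, 0.93, 1.21, 1.01, 1.16 and 1.09, a mean of 1.07 ± 0.10 (SD over 7 clusters). Those of replicate 1 were 0.95, 1.02, 1.02, 1.42, 1.05, 1.39 and 1.36, and those of replicate 2 were 1.25, 0.95, 0.96, 1.08, 0.98, 1.01 and 0.84. Each scored above 87.6% to 93.8% of the combined list. The SD of 0.10 compares with 0.41 over chromosome 4, 0.82 over the other Het scaffolds, 0.76 over U and 0.37 over the large arms, in each case over combined clusters found in both replicates. In the replicate lists the SD over the 7 clusters was larger, at 0.21 in replicate 1 and 0.13 in replicate 2. The replicates did not order the 7 clusters alike. Spearman's rho was 0.00 and Pearson's r -0.30 over these 7 points, which share a narrow range of scores. Replicate 1 had the higher score in 6 of the 7.

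**Figure D3:**
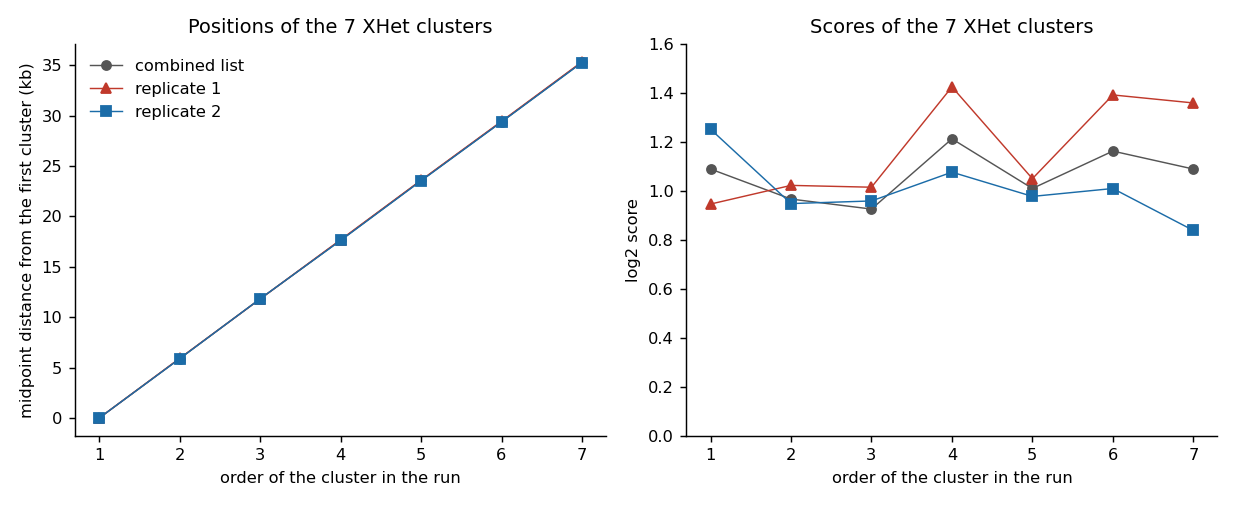
The left panel plots the distance of each cluster's midpoint from that of the first (kb) against its order in the XHet run, with the 3 lists lying on top of each other; the right panel plots the log2 scores of the same 7 clusters. The positions rise in nearly equal steps with a mean of 5884.5 bp, and the scores stay between 0.84 and 1.42 in all lists.

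The longer Het scaffolds carried a few clusters each that both replicates marked, among them some of the strongest of the whole data set. 3RHet had 23 combined clusters, of which 5 were in both and 18 in neither. Its highest lay from 2106118 to 2108400, with a log2 score of 2.23 in the combined list, 2.20 in replicate 1 and 2.25 in replicate 2. Its longest, from 1522869 to 1526894 (4026 bp), had 1.53, 1.56 and 1.52 in the same lists. Replicate 2 minus replicate 1 was 0.05 for the highest and -0.04 for the longest. The remaining 3 lay from 1011027 to 1013133 (1.14), from 2348292 to 2350808 (1.12) and from 2377308 to 2379552 (0.90), so that all 5 scored above 86.6% or more of the combined list.

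3LHet had 27 combined clusters, with 6 in both, 3 in 1 and 18 in neither. The highest of the 6 lay from 1238928 to 1240956, with 2.78 in the combined list, 2.44 in replicate 1 and 2.97 in replicate 2. A second one, and the longest of the scaffold, from 56200 to 59441, had 1.91, 1.97 and 2.03. The cluster from 1284359 to 1286913 had 1.70, 1.57 and 1.85. These 3 exceeded the highest score on chromosome 4. The other 3 were lower, at 1.11 from 1505734 to 1507883, at 0.53 from 2544464 to 2546704 and at 0.40 from 714530 to 716529.

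2RHet had 34 combined clusters, with 6 in both and 28 in neither. The strongest of these 6, from 368804 to 371736, ranked 3 in each replicate list, with 2.99 in replicate 1, 3.19 in replicate 2 and 3.06 in the combined list. Clusters from 2628604 to 2631015 and from 821766 to 823996 followed at ranks 151 and 253 of the combined list. Those from 2993006 to 2994997 (0.64) and from 1856677 to 1858686 (0.51) were weaker. The last, from 1261380 to 1263360, had 0.19, above only 1.16% of the combined list, although both replicates listed it at 0.29 and 0.19. 2RHet therefore held both one of the strongest and one of the weakest clusters found in both replicates.

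No cluster of 2LHet (0 of 3, exact upper limit 70.8%) or of YHet (0 of 4, upper limit 60.2%) was found in a replicate. Their highest lay from 340268 to 341290 on 2LHet, with 0.99, and from 20313 to 21313 on YHet, with 2.96. Their longest ran from 237676 to 239599 on 2LHet (1924 bp) and from 206119 to 207197 on YHet (1079 bp). Each of these scaffolds had 1 cluster in replicate 2 and none in replicate 1, and neither of those overlapped a combined cluster.

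On U, 15 of 112 clusters were found in both replicates. The strongest of these 15, from 4251871 to 4254169, had 3.18 in the combined list and 3.24 in each replicate, where it ranked 2. The next 4 lay from 6832406 to 6834622 (1.67), from 5686811 to 5689388 (1.65), from 9904697 to 9906838 (1.59) and from 7424586 to 7426734 (1.45). A distance of 1.51 on the log2 scale therefore separated the first from the second. The cluster from 7424586 had 1.72 in replicate 1 and 1.33 in replicate 2, the opposite order to the 3 before it. The clusters from 1532567 to 1534755 and from 3206072 to 3208149 had 1.16 and 1.09. Lower scores of 0.78, 0.75 and 0.72 belonged to the clusters from 6311730 to 6313723, from 4021709 to 4023983 and from 3395249 to 3397350. The remaining 5 had combined log2 scores of 0.21 to 0.52, and the 15 were 1994 to 2639 bp long.

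Support by replicate 2 alone was rarer on U than on the large arms, and support by replicate 1 alone was not. On U, 3 of 112 clusters were in replicate 2 only (2.68%, exact interval 0.56 to 7.63%), against 14.0% on the large arms. A further 10 of the 28 replicate 2 clusters on U overlapped no combined cluster. In replicate 1 only were 9 of 112 (8.04%, 3.74 to 14.7%), against 7.34% on the large arms. The 3 weakest of those 9 lay next to each other within 10.9 kb. They ran from 5289585 to 5294747 (5163 bp, the longest of all 259 clusters), from 5295066 to 5296627 and from 5298500 to 5300517. Their log2 scores were 0.18, 0.08 and 0.10, and the second was the lowest score of all 7960 combined clusters.

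Most clusters on the Het scaffolds and U were found in neither replicate, and these were short and often had high scores. Their median length was 1066 bp over 74 on the Het scaffolds and 1048 bp over 85 on U. Over 2413 on the large arms it was 1260 bp. Their median log2 score was 0.81 (exact interval 0.49 to 1.08) on the Het scaffolds and 1.41 (1.05 to 1.77) on U, compared with 0.36 (0.35 to 0.36) on the large arms. A score above 0.90 was reached by 33 of 74 on the Het scaffolds and 59 of 85 on U, compared with 29 of 2413 on the large arms. Among the 100 highest scores of the combined list were 40 of the 183 clusters found in neither and 4 of the 57 found in both. Beside them were 56 clusters of the large arms, of which 48 were found in both and 7 in neither.

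The shortest length in the combined list, 1001 bp, was shared by 23 of 112 clusters on U, 9 of 101 on the Het scaffolds and 1 of 46 on chromosome 4, against 1.8% of the whole list. None of the 57 clusters found in both replicates had it, and neither did any of the 3705 such clusters in the whole list. The shortest of the 57 was 1981 bp, against 1548 bp over the 3705. The replicate lists began at 1301 bp. Of the 183 clusters found in neither, 144 were shorter than that, against 1311 of 2413 on the large arms and 1455 of 2596 in the whole list. With clusters of at least 1301 bp alone, the share found in both was 52.9% on chromosome 4 (exact interval 35.1 to 70.2%), 61.5% on the Het scaffolds (44.6 to 76.6%) and 40.5% on U (24.8 to 57.9%), compared with 58.4% (57.2 to 59.6%) on the large arms. The intervals of chromosome 4 and the Het scaffolds include the value of the large arms, and that of U lies below it.

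Identical scores recurred on these sequences. A log2 score of 2.54, equal to 10 decimals, was given to 13 clusters, of which 12 lay on U and 1 on a Het scaffold, and all were found in neither replicate. A score of 3.13 was shared by 7 clusters, 6 of them on U or the Het scaffolds, and 2.96 by 4, all there. When 2 was raised to the score and divided by 1 constant for the list, 28 of 112 clusters on U, 9 of 101 on the Het scaffolds and 1 of 46 on chromosome 4 gave a plain whole number, against 1.04% of the whole list. None of the 57 clusters found in both did, against 0.243% of all 3705 combined clusters found in both. The smallest denominator of the 57 was 5. Which clusters give a plain whole number depends on that constant, whose simple factor is unknown. Numbers of reads were not used here, so what these repeated values stand for was not tested.

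**Figure D4:**
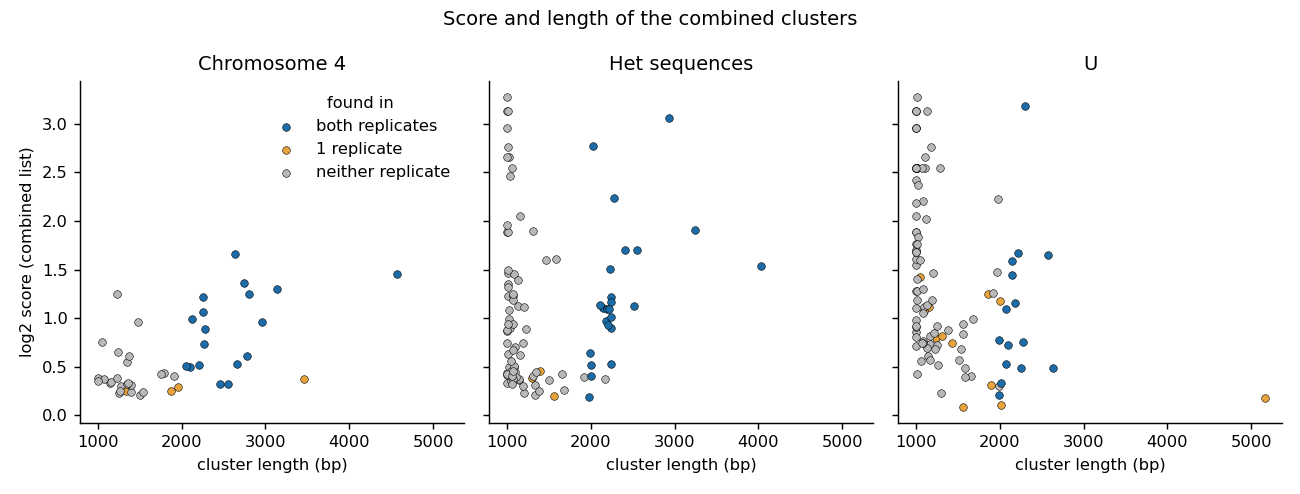
Each point is 1 combined cluster on chromosome 4, the Het scaffolds or U, with its length in bp and its log2 score, coloured by replicate support. Points found in both replicates start at 1981 bp, whereas points found in neither crowd near 1001 bp and reach a log2 score of 3.28 on the Het scaffolds and U but 1.25 on chromosome 4.

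Among the clusters found in neither, the highest lay from 2792934 to 2793934 on 2RHet and from 7856831 to 7857846 on U, both at 3.28. The highest of 3LHet, from 260989 to 262000, had 3.13, and that of 3RHet, from 553350 to 554512, had 2.05. All 4 were 1001 to 1163 bp long. Among the longer clusters found in neither, 3 lay in the last part of U. They ran from 9214234 to 9216202, from 9550278 to 9552258 and from 9563405 to 9565323, with log2 scores of 1.47, 2.22 and 1.26, and they were singled out after their values were seen.

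The replicates were next compared with each other directly, without the combined list. On chromosome 4, 18 of 19 clusters of replicate 1 overlapped one of replicate 2 (94.7%, exact interval 74.0 to 99.9%), against 84.7% of all its clusters. On the Het scaffolds it was 24 of 31 (77.4%, 58.9 to 90.4%) and on U 15 of 25 (60.0%, 38.7 to 78.9%). In the other direction 18 of 24, 24 of 30 and 15 of 28 clusters of replicate 2 overlapped one of replicate 1 on chromosome 4, the Het scaffolds and U, against 76.5% of all its clusters. The interval of U lies below the share of the whole list in both directions, at 33.9 to 72.5% for replicate 2.

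Pairs of clusters kept a similar order of scores in both replicates. Over one-to-one pairs, Spearman's rho was 0.930 on chromosome 4 (n = 18), 0.888 on the Het scaffolds (n = 24) and 0.918 on U (n = 15), compared with 0.815 on the large arms (n = 3609). Pearson's r was 0.945, 0.948 and 0.95, against 0.907. Pairs share the same 2 libraries and are not independent, so these are descriptions. Without XHet the Het scaffolds had a rho of 0.983 (n = 17).

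Replicate 2 scored higher than replicate 1 in most pairs on chromosome 4. On the Het scaffolds the mean difference was small beside its SD, with or without XHet. On chromosome 4, replicate 2 had the higher log2 score in 17 of 18 pairs (94.4%, exact interval 72.7 to 99.9%), by a mean of 0.18 ± 0.15 (SD over pairs), against 71.3% of all pairs. On the Het scaffolds it was higher in 10 of 24 pairs (41.7%, 22.1 to 63.4%), with a mean difference of -0.03 ± 0.25. Without XHet it was higher in 9 of 17 pairs (52.9%, 27.8 to 77.0%), with 0.03 ± 0.22, while XHet itself had 1 of 7, with -0.16 ± 0.28. On U it was higher in 8 of 15 (53.3%, 26.6 to 78.7%), with 0.04 ± 0.24. On the large arms the mean difference was 0.09 ± 0.17. The lists were scored separately by the authors, so the size of the offset has no direct reading, and no test of it was made.

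**Figure D5:**
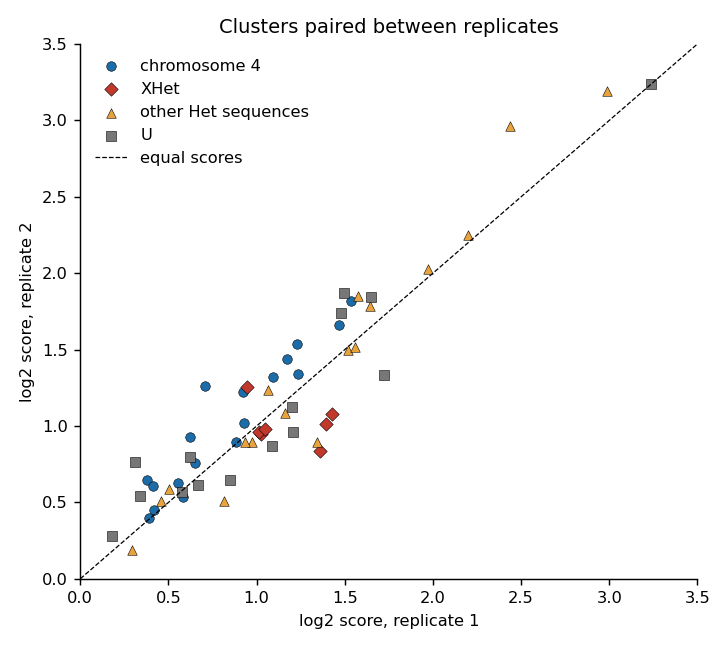
Log2 score in replicate 1 (horizontal) and replicate 2 (vertical) for the 57 one-to-one pairs on chromosome 4, XHet, the other Het scaffolds and U, with the line of equal scores. Chromosome 4 lies above the line in 17 of 18 pairs, while 6 of the 7 XHet pairs lie below it.

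Some replicate clusters on these sequences were missing from the combined list. Of the replicate 1 clusters, 1 of 19 on chromosome 4, 6 of 31 on the Het scaffolds and 1 of 25 on U had no combined counterpart, against 2.24% of that list. Of the replicate 2 clusters it was 2 of 24, 4 of 30 and 10 of 28, against 0.98% of that list. None of these 24 clusters was found in the other replicate. The same value over all clusters missing from the combined list is not given here, so this is not read as particular to these sequences. The share on U for replicate 2 was 35.7% (exact interval 18.6 to 55.9%), against 0.664% on the large arms.

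The highest-scoring clusters of both replicate lists were among those missing. Replicate 1 had 3.59 from 696327 to 697778 on 3RHet and 2.70 from 498514 to 499852 on 3LHet. Replicate 2 had 4.01 from 9305997 to 9307477 on U, followed by 1.99 from 6631760 to 6633782 and 1.92 from 8889203 to 8891301, also on U. Their nearest combined clusters were 61.7, 128, 27.9, 27.4 and 75.6 kb away, in the order given. Next in replicate 1 were clusters from 7972468 to 7973826 on U (1.65), from 802384 to 803696 on 2RHet (0.64) and from 1406292 to 1407742 on 3LHet (0.62). Next in replicate 2 were clusters from 9745658 to 9747559 on U (1.65) and from 59178 to 60532 on YHet, at ranks 175 and 255 of that list. Past position 8500001 of U, a limit chosen after the values were seen, replicate 2 listed 8 clusters of which 7 were missing from the combined list, and replicate 1 listed 1. The combined list had 22 clusters there, 21 of them found in neither replicate, so that the lists shared 1 cluster in these 1.55 Mb, the one from 9904697 to 9906838.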

How the data were processed

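CP190 was mapped by ChIP-seq in 2 ChIP replicates, called against 2 inputs. The aligner was Bowtie 0.12.7, as named in the submitters' processing notes. The authors deposited 1 list of enriched regions for each ChIP replicate and 1 combined list, on FlyBase release 5 with 1-based coordinates, per the file headers. The peak caller, its thresholds and the making of the combined list are not stated there or in the labels. The files name no unit for the value that the authors deposited with each region, which is treated as a log2 enrichment score made by their calling against input. The reason is that 2 raised to it, over 1 constant per list, gave a ratio of whole numbers (denominator up to 2000, relative tolerance 1e-12) for 7954 of 7960 combined clusters, 4460 of 4461 of replicate 1 and 4900 of 4900 of replicate 2. That constant has an unknown simple factor, so the terms are not read counts. Read depth is unknown, and scores were ranked within a list only.

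Overlaps, medians and exact intervals (Clopper-Pearson for shares, Poisson for densities, order statistics for medians) were computed with Python 3.11.15, NumPy 2.4.6, SciPy 1.17.1 and pandas 2.3.3, and tested on simulated data. In a list with several overlapping clusters, the highest score was taken. Clusters named were those found in both replicates (on each Het scaffold and U, up to 10 by score), the highest found in neither and the longest of each sequence, and the highest missing from the combined list. The members and lists were chosen with earlier results of these data known. Gene annotation was on release 6 of the genome, so no gene is named. Sequences of the clusters were not used here.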

Additional observations from a re-analysis of the deposited data

How the results depend on the processing

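For 18 results, 104 alternative values were computed, of which 66 stayed inside the interval (for run counts, within 1.5 times) of the value given and 38 did not. Requiring 50% of a cluster to be covered, or merging neighbours less than 200 bp apart, moved none of the results computed under them. With clusters of at least 1301 bp, density was 4.20 per Mb on Het and 3.68 on U, median length 2107 and 1987 bp, the share in both 61.5% and 40.5%, and the share in neither 35.3% on chromosome 4, 33.3% on Het and 37.8% on U. The median score on U was then 0.75. Above the median score of the combined list, chromosome 4 had 17.8 clusters per Mb, 66.7% in both, 33.3% in neither and a median length of 2232 bp, and Het had 8.40 per Mb. Without clusters whose ratio was a plain whole number, U had 8.36 per Mb, medians of 0.91 for score and 1220 bp for length. Fewer clusters enter these settings by construction, and for the remaining changes the cause was not tested.

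Leaving out either replicate, by using the other replicate's list, gave 14.1 to 17.8 clusters per Mb on chromosome 4, 3.23 to 3.34 on Het and 2.49 to 2.79 on U. Median score on chromosome 4 was then 0.71 to 0.83. Median length was 2081 to 2107 bp on Het and 1812 to 2072.5 bp on U, where the replicate lists hold no cluster under 1301 bp. With support judged by 1 replicate, U had 16.1 to 21.4% supported and 78.6 to 83.9% not. Leaving out XHet, chosen after seeing the data, kept the Het density, both shares and both medians inside their intervals, with 18.7% in both. The mean difference between replicates on Het was 0.03 ± 0.22 without XHet and -0.03 ± 0.25 with it. Looser rules for even runs were also chosen after seeing the data. In the replicate lists and among combined clusters found in both, 5 or more clusters or a spacing ratio up to 1.2 gave 1 to 2 runs. With 4 or more clusters there were 10 to 13. The full combined list gave 3 runs with 5 or more clusters, 0 with the ratio up to 1.2 and 25 with 4 or more. No paired analysis was possible because each ChIP replicate is 1 list and input chromatin has no list of its own here. Unknown read depth limits what can be said of short, high-scoring clusters.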
